A study of Mus musculus with 6 samples.

Results

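The genes described here encode the proteins of the cytosolic ribosome in epithelial cells of the mouse colon. They were chosen by a rule on names, which was set with earlier results of these data known. The rule took every gene whose own symbol on the array annotation follows the pattern of the large-subunit or small-subunit names. Large-subunit names are Rpl and a number, or Rplp0 to Rplp2, and small-subunit names are Rps and a number, or Rpsa. This rule gave 61 of the 19938 genes with a probe set of their own, 38 of the large and 23 of the small subunit. Where a gene had several probe sets, the brightest over all 6 arrays stood for it. The level, but not the contrast between groups, thus took part in the choice of probe set. RefSeq lists 90 such symbols in the mouse, and 29 of them had no probe set that named them alone, so that the core genes Rpl3, Rpl11, Rpl32, Rpl39, Rps26 and Rps27 are not analysed here.

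The cells were wild-type (WT) colonic epithelial cells sorted for the epithelial surface protein EpCAM and against the leukocyte antigen CD45. The donors were 6-week-old BALB/c males, which went without food for 36 h and then ate again for 24 h. The 3 samples called re-fed had no further treatment. The 3 samples called antibiotics came from mice that also received antibiotics during re-feeding, with the agents not given in the sources used here. Each sample was hybridised to 1 Affymetrix array, and the labels name biological replicates but not the number of mice in each. No group of fasted mice that stayed unfed is among the 6 samples. The comparison asks how the gut flora bears on the colonic epithelium during its regrowth after a fast.

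A ribosome is built from ribosomal RNA and about equal copies of each ribosomal protein, in a small subunit that reads the messenger RNA and a large subunit that joins the amino acids. Cells that divide fast, such as those of the intestinal crypt, need a steady supply of new ribosomes. The messenger RNAs of these proteins are abundant and stable, and most begin with a tract of pyrimidines through which the kinase mTOR controls their translation. Much of their control is therefore exerted on translation, which an array of total RNA does not measure. Genes for ribosomal proteins have also left many processed copies in mammalian genomes, and RefSeq alone holds 321 mouse pseudogene symbols named after a gene of this pattern.

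Shared sequence at the start sites is shown first. Whether it bears on the differences between groups was not tested. RefSeq promoters (build GRCm38.p6, 250 bases before to 50 after each start) were at hand for 49 of the 61 genes, in 58 entries. The 8 windows below run from 60 bases before the start to 20 after it, 5′ to 3′ on the gene's strand. They are those of the 3 tested genes with the highest and the 3 with the lowest difference between groups among genes with a single entry, and of Rps6 and Rplp0. Capitals mark runs of 10 or more C or T and the motifs TCTCGCGA and CCGGAAG, each on either strand.
Rpl26 (chr11:68901506-68901585, + strand): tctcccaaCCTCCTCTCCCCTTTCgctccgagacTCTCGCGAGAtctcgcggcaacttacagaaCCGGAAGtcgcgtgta
Rpl32l (chr10:20208379-20208458, + strand): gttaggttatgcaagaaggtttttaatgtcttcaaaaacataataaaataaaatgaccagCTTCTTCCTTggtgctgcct
Rpsa (chr9:120127706-120127785, + strand): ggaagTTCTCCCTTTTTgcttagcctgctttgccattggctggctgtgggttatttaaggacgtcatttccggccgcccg
Rplp0 (chr5:115559407-115559486, + strand): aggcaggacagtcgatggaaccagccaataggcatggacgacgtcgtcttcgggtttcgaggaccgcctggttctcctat
Rps6 (chr4:86857348-86857427, - strand): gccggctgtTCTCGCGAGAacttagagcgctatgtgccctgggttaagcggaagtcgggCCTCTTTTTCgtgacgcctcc
Rpl9 (chr5:65391412-65391491, - strand): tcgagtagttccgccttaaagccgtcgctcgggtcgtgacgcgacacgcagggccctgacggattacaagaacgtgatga
Rpl41 (chr10:128549149-128549228, - strand): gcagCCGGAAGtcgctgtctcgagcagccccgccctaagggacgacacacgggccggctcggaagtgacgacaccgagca
Rpl14 (chr9:120571457-120571536, + strand): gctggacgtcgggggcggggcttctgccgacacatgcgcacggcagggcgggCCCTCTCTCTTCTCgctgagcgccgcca

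Over the whole 300 bases and both strands, TCTCGCGA stood in 11 of the 58 entries (19.0%), against 0.995% of the 32851 promoters in the table. CCGGAAG, the core that ETS factors such as GABP bind, stood in 20 entries (34.5%, against 8.86% of all). A run of at least 10 C or T within 20 bases of the start occurred in 17 entries (29.3%, against 7.39%). The sequence AAGATGGC, as bound by YY1, stood in 3 entries (5.17%, against 2.75%), TGACGTCA in 4 (6.9%, against 1.79%) and GGGCGG in 33 (56.9%, against 35.7%). TATAAA on the gene's strand in the 50 bases before the start was found in 0 of the 58, against 2.63% of all. The window of Rpl26 held every marked kind of sequence, though its pyrimidine run lay more than 20 bases before the start. A run within 20 bases of the start stood in the windows of Rpl32l, Rps6 and, at the other end of the differences, Rpl14. Rpl9 and Rplp0 held none of the marked sequences in these 80 bases. Such matches describe letters and are no evidence that a factor binds.

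The limma test covered 12071 genes whose mean, once arrays were quantile normalised, exceeded a log2 value of 5.81, the limit set for dim signal; 58 ribosomal protein genes were among them. Differences are given on the log2 scale as the antibiotics mean less the re-fed mean. No ribosomal protein gene passed at a Benjamini-Hochberg adjusted p under 0.05, against 0.058% of all genes tested (0.00828% counting higher genes only). At an unadjusted p under 0.05 there were 11 of the 58, all higher with antibiotics (background 5.3% in that direction), and 0 lower (background 7.32%). The differences nevertheless lay to one side: 54 of the 58 were above 0, where 50.7% of all genes were, and their median was 0.20, a 1.15-fold higher level, beside a median of 0.0033 over all genes tested. All 58 genes were read from the same 6 samples, so that their signs are not independent of each other. In bulk RNA, a change in the number of cells of a type and a change in RNA per cell cannot be told apart.

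The large and the small subunit had the same median difference to 2 decimals. It was 0.20 over 35 large-subunit genes, 31 of them above 0 and 4 below, and 0.20 over 23 small-subunit genes, all above 0 under this scaling. The large minus the small median was -0.0017. Each subunit had 7 genes whose 3 values with antibiotics all lay above the 3 without, together 14 of 58, where 8.88% of all genes tested were so separated. In no ribosomal protein gene that was tested did the groups separate the other way (background 10.7%). The quartiles of the differences of single genes were 0.14 and 0.26, with standard errors from 0.093 to 0.18 (median 0.12). In 17 of 58 genes the difference exceeded 2 standard errors, all higher with antibiotics, where 7.52% of all genes did so in that direction.

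**Figure D1:**
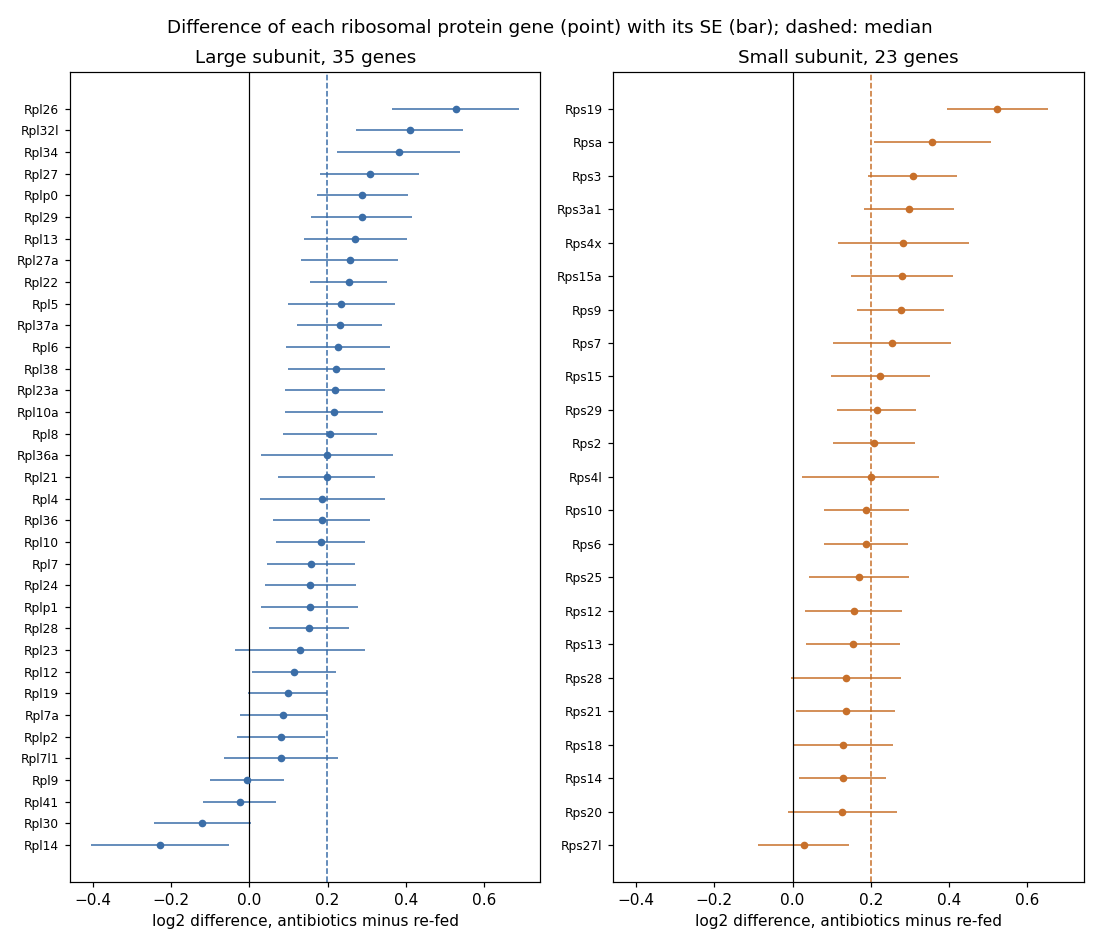
Log2 difference (antibiotics minus re-fed, horizontal axis) of each ribosomal protein gene tested, large subunit on the left and small subunit on the right, with bars of 1 moderated standard error and the subunit's median as a dashed line. Both medians sit at 0.20, Rpl26 (0.53) and Rps19 (0.52) lie highest, and Rpl14 (-0.23) lies lowest.

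The shift was uneven among the arrays. Taking each gene relative to its own mean over the 6 arrays, the median over the 58 genes was -0.032, -0.010 and -0.25 in re-fed replicates 1, 2 and 3, and 0.13, -0.039 and 0.23 in antibiotics replicates 1, 2 and 3. The groups thus overlapped in this summary, since antibiotics replicate 2 lay just below re-fed replicates 1 and 2. Re-fed replicate 3 was the lowest of the 6 arrays in 44 of the 58 genes, as in 13.0% of all genes tested. Antibiotics replicate 3 was the highest in 39, as in 22.7% of all genes, although it was also the lowest array in 26.1% of all genes. That array stands apart in the deposited values: it had 10829 distinct values, where each of the others had at least 34568, and the lowest median (5.63). Whether it was processed together with the others is not stated, and the part of this in the differences was not tested. Without re-fed replicate 3 the median was 0.12, and without antibiotics replicate 3 it was 0.15. Both subunits followed the arrays alike, with large-subunit medians of -0.26 in re-fed replicate 3 and 0.24 in antibiotics replicate 3 against -0.25 and 0.23 for the small subunit. In these arrays the large minus the small median ranged from -0.011 (re-fed replicate 3) to 0.039 (re-fed replicate 2).

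**Figure D2:**
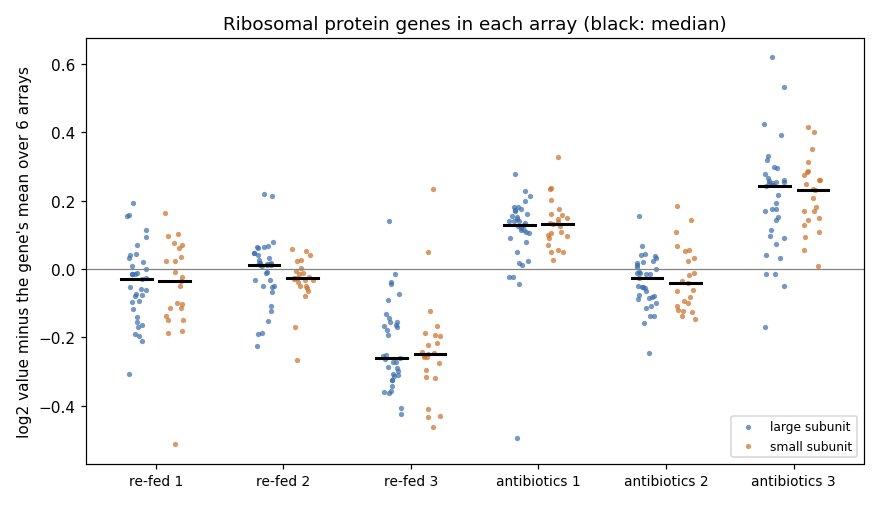
Value of each ribosomal protein gene in each array minus the gene's mean over the 6 arrays (log2, vertical axis), for large-subunit (blue) and small-subunit (orange) genes, with medians as black bars. Points of re-fed replicate 3 lie mostly below 0 (median -0.25) and those of antibiotics replicates 1 and 3 mostly above (0.13 and 0.23), while antibiotics replicate 2 (-0.039) sits among the re-fed arrays.

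Of the small subunit, Rps19, a protein of the subunit's head whose loss causes the red cell aplasia Diamond-Blackfan anaemia, had the lowest adjusted p of the family. It measured 8.98, 8.99 and 8.72 in the 3 re-fed samples and 9.49, 9.21 and 9.56 in the 3 antibiotics samples. All values with antibiotics lay above all those without, and the difference was 0.52 (SE 0.13, limma adjusted p = 0.179), a 1.44-fold higher level. It lay between 0.44 and 0.63 when any 1 array was left out.

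Rpsa, a small-subunit protein also known as the laminin receptor, stood at 10.12, 10.09 and 9.68 without antibiotics and at 10.34, 10.12 and 10.49 with them. The groups were separated by a hair, with antibiotics replicate 2 next to re-fed replicate 1, and the difference was 0.36 (SE 0.15, adjusted p = 0.37), or 0.22 without re-fed replicate 3. Rps3, which lines the channel where the messenger RNA enters, measured 9.96, 10.04 and 9.84 against 10.34, 10.09 and 10.34 (0.31, SE 0.11, adjusted p = 0.322). Its neighbour in the ribosome Rps2 stood at 11.90, 11.93 and 11.70 against 12.10, 12.01 and 12.04 (0.21, SE 0.11, adjusted p = 0.449). In both genes antibiotics replicates lay above the re-fed ones, and re-fed replicate 3 was the lowest array.

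Rps3a1, a protein of the small subunit's platform, measured 6.94, 7.11 and 6.77 without and 7.19, 7.23 and 7.30 with antibiotics (0.30, SE 0.11, adjusted p = 0.341). Rps9, an early-assembling protein of the small subunit, differed by 0.28 (SE 0.11) and Rps29, a small zinc-binding protein, by 0.22 (SE 0.10). Both separated the groups and are named, like Rps2, after their values were seen. Rps6, the classical substrate of the S6 kinases downstream of mTOR, stood at 12.66, 12.81 and 12.54 against 12.87, 12.80 and 12.91. Here antibiotics replicate 2 fell just below re-fed replicate 2, and the difference was 0.19 (SE 0.11, adjusted p = 0.498), or 0.12 without re-fed replicate 3. The other small-subunit genes of the core ribosome differed by 0.13 (Rps20) to 0.28 (Rps4x).

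Of the large subunit, Rpl26, which sits near the exit of the tunnel for the growing peptide, had the largest difference of all 58. It measured 8.45, 8.46 and 8.24 in the 3 re-fed samples and 8.85, 8.62 and 9.27 in the 3 antibiotics samples. The groups did not overlap, and antibiotics replicate 3 stood well apart from its group, so that the difference of 0.53 (SE 0.16, adjusted p = 0.258) became 0.35 without that array. Rpl34 had the same profile, with 9.52, 9.46 and 9.29 against 9.74, 9.54 and 10.15 (0.38, SE 0.16, adjusted p = 0.364, and 0.21 without antibiotics replicate 3). Rpl27 averaged 10.52 ± 0.16 without and 10.83 ± 0.16 with antibiotics (SD, n = 3), with re-fed replicate 2 and antibiotics replicate 2 both at 10.69 (0.31, SE 0.13, adjusted p = 0.364).

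Rpl22, an RNA-binding protein whose loss impairs lymphocyte development, was measured most evenly among re-fed arrays. It stood at 7.43, 7.46 and 7.44 without and at 7.69, 7.61 and 7.78 with antibiotics, a difference of 0.25 (SE 0.10, adjusted p = 0.343); the groups did not overlap. Rpl5, which carries a ribosomal RNA into the large subunit and, when free, binds the p53 regulator Mdm2, stood at 10.33, 10.46 and 10.04 against 10.53, 10.34 and 10.65 (0.23, SE 0.14, adjusted p = 0.504, and 0.12 without re-fed replicate 3). The groups overlapped in Rpl5, as they did in Rpl10 (0.18, SE 0.11, adjusted p = 0.539, and 0.11 without antibiotics replicate 3), a late-joining protein needed for the last step of large-subunit maturation. Rpl27a (0.26, SE 0.12) and Rpl37a (0.23, SE 0.11) separated the groups and are also named after their values were seen.

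The proteins of the stalk, the arm of the large subunit that recruits elongation factors, had differences that were not tested against each other. Its base Rplp0 stood at 11.53, 11.70 and 11.40 against 11.85, 11.71 and 11.94, separate groups with a difference of 0.29 (SE 0.12, adjusted p = 0.355). The acidic proteins bound to it overlapped between groups, Rplp1 with a difference of 0.15 (SE 0.12, adjusted p = 0.629, and 0.067 without re-fed replicate 3) and Rplp2 with 0.081 (SE 0.11, adjusted p = 0.806). Rplp2 was on the other side of 0 with the deposited scaling (-0.0070), under which the median of all genes tested was -0.12.

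Large-subunit genes at the other end showed 4 values below 0. Rpl14 stood at 6.75, 6.97 and 6.90 without and at 6.27, 6.65 and 7.03 with antibiotics, so that antibiotics replicate 3 was the highest and antibiotics replicate 1 the lowest of the arrays (-0.23, SE 0.18, adjusted p = 0.621). Its difference was -0.038 without antibiotics replicate 1 and -0.42 without antibiotics replicate 3. Rpl30 differed by -0.12 (SE 0.12, adjusted p = 0.723), and by -0.040 without re-fed replicate 2 and -0.23 without re-fed replicate 3. Both were dim: Rpl30 lay at the 12.7th and Rpl14 at the 29.6th percentile of the genes tested.

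Rpl41, the shortest ribosomal protein, and Rpl9 were bright and nearly level on all arrays. Rpl41 measured 12.17, 12.16 and 12.13 without and 12.12, 12.14 and 12.12 with antibiotics (-0.025, SE 0.093, adjusted p = 0.937). Rpl9 measured 12.14, 12.18 and 12.10 without and 12.15, 12.16 and 12.09 with antibiotics (-0.0055, SE 0.095, adjusted p = 0.989). Re-fed replicate 3 and antibiotics replicate 3, the extremes of most of the family, lay side by side in both genes. The sign of Rpl9 turned under some of the other settings, among them the fit within 4 arrays (0.016). Rpl7a, with 0.087 (SE 0.11, adjusted p = 0.786), also stood near 0 and lay below it with the deposited scaling (-0.095). That scaling put the median of all genes tested at -0.12.

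**Figure D3:**
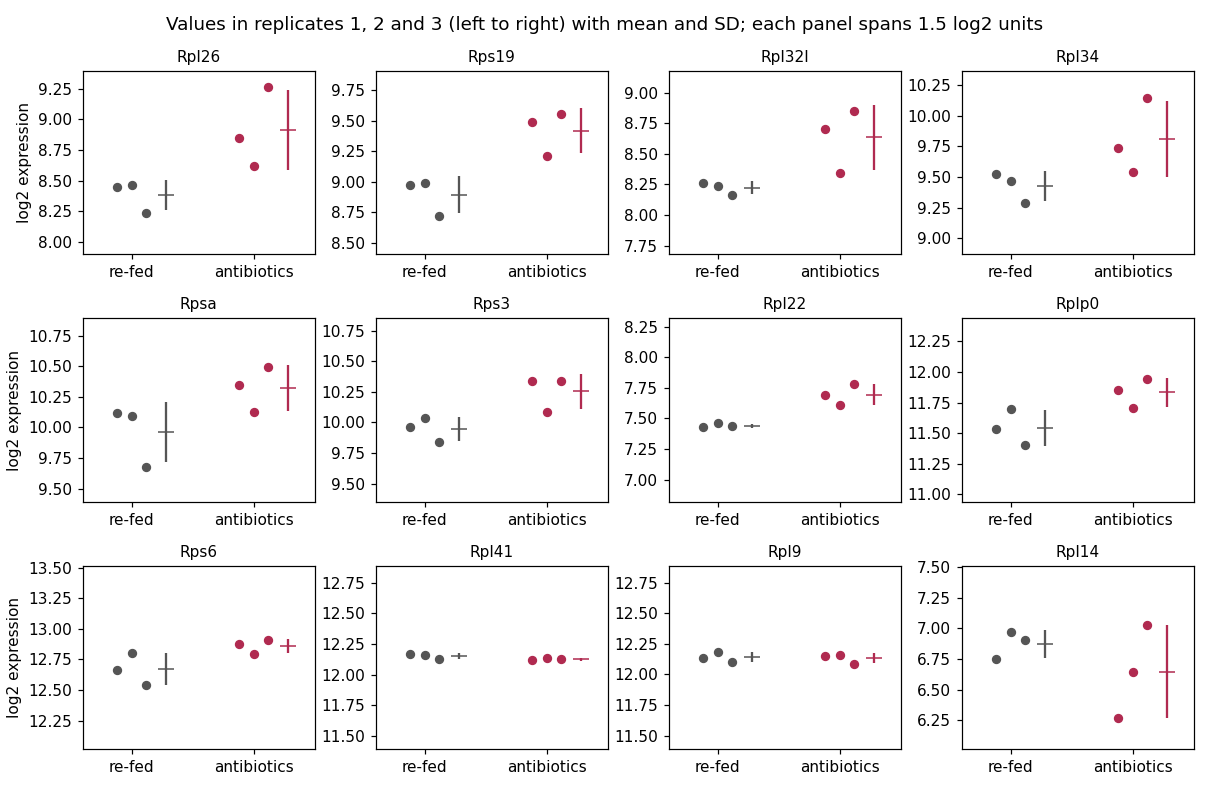
Log2 expression of 12 ribosomal protein genes in replicates 1, 2 and 3 (points, left to right) of the re-fed (grey) and antibiotics (red) groups, with mean and SD beside them; each panel spans the same range. In Rps19 the antibiotics arrays (9.49, 9.21 and 9.56) lie clear of the re-fed arrays (8.98, 8.99 and 8.72), whereas Rpl41 and Rpl9 form a level line near 12.1.

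Paralogs, genes whose names mark them as copies of a core gene, are given apart. Rpl32l had the third largest difference, with 8.27, 8.24 and 8.17 in the 3 re-fed samples and 8.71, 8.34 and 8.85 in the 3 antibiotics samples (0.41, SE 0.14, adjusted p = 0.288). Its groups did not overlap, but it is named for its likeness to Rpl32, and signal from Rpl32 messenger RNA on its probes was not tested. Rps27l, a target of p53 that resembles Rps27, stood at 10.07, 10.27 and 10.26 against 10.35, 10.07 and 10.27. Its groups overlapped (0.028, SE 0.12, adjusted p = 0.943), which made it the lowest of the small-subunit genes, and its sign turned under several settings.

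Rpl7l1, a nucleolar relative of Rpl7, differed by 0.081 (SE 0.14, adjusted p = 0.853), and Rpl7 itself by 0.16 (SE 0.11, adjusted p = 0.591), each with overlapping groups. Both were below 0 with the deposited scaling (-0.11 and -0.029), beside a median of -0.12 for all genes tested. Rps4l, a copy of the X-linked gene Rps4x, measured 7.16, 7.65 and 7.91 against 7.78, 7.86 and 7.69 (0.20, SE 0.17, adjusted p = 0.659). Re-fed replicate 1 was the low array there, and without it the difference was -0.0071. In Rps4x re-fed replicate 3 was the low array (10.14, 10.08 and 9.68 against 10.24, 9.98 and 10.52), and the difference of 0.28 became 0.14 without it and 0.15 without antibiotics replicate 3. The remaining 3 paralogs, Rpl3l of striated muscle and Rpl10l and Rpl39l of the male germ line, had means under the floor for dim signal and were not tested.

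Most of these genes are measured more than once on the array, since 217 probe sets named a single gene of the family. Only the kept probe set entered the values above. Over the 156 others above the floor the median difference was also 0.20, with 148 above 0 and 8 below. They are not a second experiment, because they come from the same 6 samples, and 12 of the 217 repeated another probe set of their gene exactly on all arrays. Rps12, in the small subunit, had 14 probe sets with 8 distinct profiles and differences from 0.043 to 0.18. The 13 of Rpl23a ran from 0.19 to 0.36, and the 8 of Rps6 from 0.18 to 0.24. Rpl9 was low throughout, with 7 of its 8 probe sets below 0 and a range from -0.087 to 0.14. Rpl27 was the gene with the widest range, from 0.035 to 0.31, and its kept probe set gave the highest value. Another 237 probe sets named a ribosomal protein gene together with other genes and were not used. Probes that also match pseudogene transcripts cannot be told from those of the gene itself here.

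**Figure D4:**
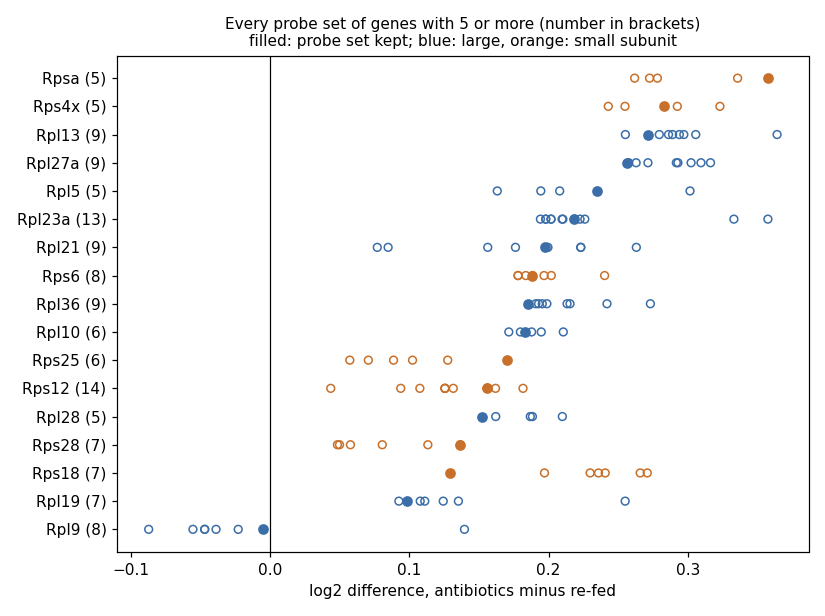
Log2 difference (antibiotics minus re-fed, horizontal axis) of every probe set of the genes with 5 or more, the number in brackets, with the kept probe set filled and the others open; blue marks the large and orange the small subunit. The probe sets of Rps6 cluster between 0.18 and 0.24, while 7 of the 8 of Rpl9 lie below 0.

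The size of the shift hung on how arrays were scaled. The deposited values, whose array medians ranged from 5.63 to 6.17, put the median of all genes at -0.12 and that of the ribosomal protein genes at 0.046, with 39 above and 19 below 0, against 27.6% of all genes above 0. Relative to all genes the family's shift was 0.16 there, beside 0.19 after quantile normalisation. These genes are bright, 47 of the 58 being among the 3018 brightest genes tested. The median difference of those 3018 was -0.024. In a fit of only 4 arrays (the re-fed ones numbered 2 and 3, with antibiotics 1 and 2), which share more exact values with each other than with the other arrays, the median was 0.18 and 54 of 58 were above 0, as were 52.6% of all genes. Fitting with array weights called 5 ribosomal protein genes at an adjusted p under 0.05, where 9.68% of all genes were called: Rps19, Rpl26, Rpl32l and Rps3 higher and Rpl14 lower.

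**Figure D5:**
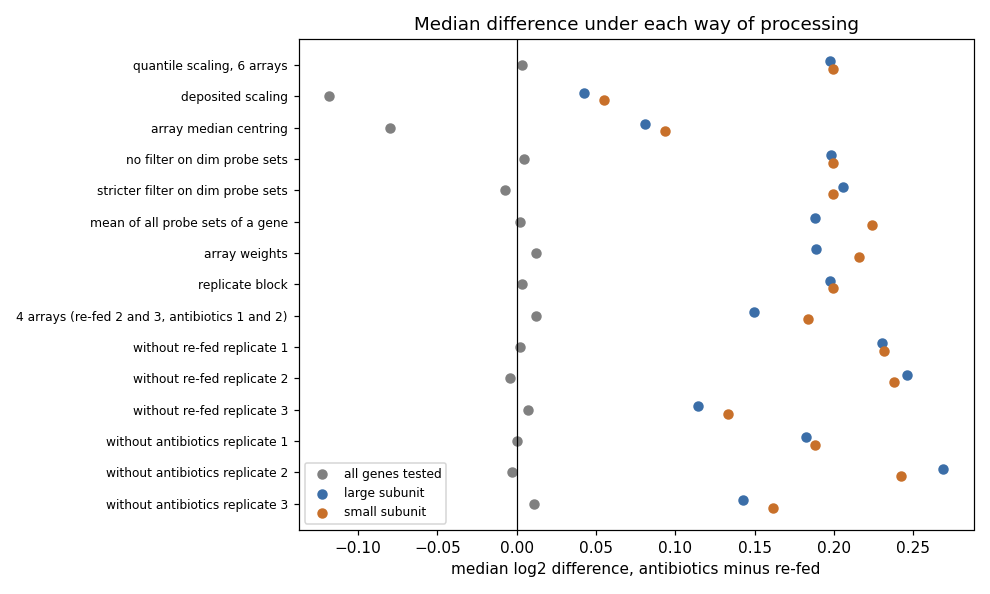
Median log2 difference (antibiotics minus re-fed, horizontal axis) of all genes tested (grey), large-subunit (blue) and small-subunit (orange) genes under each way of processing (rows). The ribosomal medians lie to the right of that of all genes in every row, from 0.043 (large subunit, deposited scaling) to 0.27 (large subunit, without antibiotics replicate 2).

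Other genes of translation, on a list chosen by function, lay closer to 0. Of 65 genes listed, 53 were tested and 0 passed over all genes. At an unadjusted p under 0.05, 2 were higher (background 5.3%) and 1 lower (background 7.32%). The median was 0.042 with 36 above and 17 below 0, where 50.7% of all genes were above. The median of this list was -0.088 with the deposited scaling, beside -0.12 for all genes tested. Fau, whose product is a fusion that releases a small-subunit protein, differed by -0.075 (SE 0.11, adjusted p = 0.815). The elongation factors and other messengers with a pyrimidine tract at the start had a median of 0.10 over 9 genes. Among them the elongation factors Eef1d (0.18, SE 0.096), Eef1a1 (0.15, SE 0.12) and Eef1b2 (0.14, SE 0.14) and the nascent chain factor Naca (0.14, SE 0.11) stood above 0.

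Of 22 initiation factors 15 were above 0, as were 50.7% of all genes, with a median of 0.060. Eif5b, which joins the subunits, was the lowest (-0.40, SE 0.12, adjusted p = 0.259), and Eif2s2 stood at -0.32 (SE 0.15). Eif3d (0.25, SE 0.11) and Eif3f (0.23, SE 0.11) were higher. Among regulators, the S6 kinase gene Rps6kb2 differed by -0.24 (SE 0.12), the cell cycle factor E2f1 by 0.33 (SE 0.19), Myc, which drives transcription of ribosomal genes, by 0.40 (SE 0.25) and the kinase mTOR itself (Mtor, named after its values were seen) by -0.046 (SE 0.10), each with an adjusted p above the threshold. Chaperones and assembly factors of ribosomal proteins had a median of 0.086 over 8 genes, with Tsr1 at 0.24 (SE 0.10) and Heatr3 at 0.28 (SE 0.15).

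Genes that make ribosomal RNA and assemble ribosomes had a median of 0.24 over 24 genes, 22 above 0 (background 50.7%). They followed the same arrays, with -0.25 in re-fed replicate 3 and 0.16, 0.017 and 0.23 in the 3 antibiotics samples. By limma 0 of them passed over all genes. At an unadjusted p under 0.05, 10 were higher (background 5.3%) and 0 lower (background 7.32%). The 4 with the lowest p were Nop56 (0.64, SE 0.14), Polr1b (0.56, SE 0.14), Nop2 (0.39, SE 0.11) and Polr1a (0.36, SE 0.11). The genes of the mitochondrial ribosome, a separate machine built from other proteins, had a median of 0.067 over 77 genes. Of these, 49 were above 0 (background 50.7%) and 28 below. Their median in re-fed replicate 3 was 0.028, above their own mean, where that of the cytosolic genes was -0.25. Whether the cytosolic genes differ from either of these groups was not tested.

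Markers of the cells were read on the same arrays. The 13 epithelial markers averaged 12.23, 12.20 and 12.23 in re-fed replicates 1, 2 and 3 and 12.09, 12.10 and 12.10 in the antibiotics replicates, so that the groups did not overlap. Of the 13 markers, 11 lay below 0, as did 5947 of the 12071 genes tested, and 2 lay above. The markers were uneven. The 4 with the lowest p were Krt18 (-0.59, SE 0.094), Krt20 (-0.46, SE 0.12), Cdx2 (-0.32, SE 0.11) and Cdx1 (0.33, SE 0.12). Each had a limma adjusted p above 0.05. Epcam (-0.036, SE 0.10) and Cdh1 (-0.034, SE 0.097) were nearly level. The part of the epithelial markers in the ribosomal differences was not tested. The means of 11 leukocyte markers lay between 4.93 and 4.99, and those of 10 stromal and endothelial markers between 5.73 and 5.89. Ptprc, which encodes CD45, was under the floor for dim signal. Of the genes of growth, Mki67 differed by 0.50 (SE 0.22), Pcna by 0.27 (SE 0.15), Mcm5 by 0.67 (SE 0.17) and Mcm7 by 0.55 (SE 0.16). By limma 0 of 4 passed the threshold, and 3 were higher at an unadjusted p under 0.05 (background 5.3%). Their median deviation was -0.47, -0.16 and -0.21 over the re-fed replicates and 0.16, -0.040 and 0.62 over the antibiotics replicates, in order of number. Antibiotics replicate 3 was the high array for growth genes and ribosomal protein genes, whereas the low array was re-fed replicate 1 for the former and re-fed replicate 3 for the latter. The part of growth in the ribosomal differences was not tested.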

How the data were processed

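RNA of 6 samples, 3 per group, was measured on 1 array each, from biotin-labelled cRNA per the labels' protocols. For 35557 probe sets the authors deposited log2 values, made with RMA per the submitters' processing notes (version not given in the sources used here). Of these, 23410 carried a gene in the platform table, 21789 exactly 1. Values of the 23410 were quantile normalised again, because array medians differed. Each gene took its probe set with the highest mean. Genes whose mean fell below the 40th percentile of the 23410 probe sets were not tested, because the table has no detection call. The test was limma's moderated test (version 3.58.1, under R 4.3.3; lmFit, then eBayes; two-sided; no block; Benjamini-Hochberg adjustment over 12071 genes, threshold 0.05). Errors are moderated standard errors. The code was tested on simulated data. The number of arrays limits the precision, and whether replicates are separate mice is not stated. The p-values thus set each difference against the spread between these samples, which may not be the spread between mice.

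Members, lists, settings and the naming rule were chosen with earlier results of these data known. Named were the 8 genes at either end of the differences and all paralogs, with the core gene where it was analysed. Landmark genes (Rplp0, Rplp1, Rplp2, Rpsa, Rps6, Rpl5, Rpl10, Rpl22, Rpl41, Rps3 and Rps19) and, per other list, up to 4 genes by p were also named. Promoters came from RefSeq (GRCm38.p6).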

Additional observations from a re-analysis of the deposited data

How the results depend on the processing

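Settings other than the one reported changed the scaling, the filter, the probe sets, the weights or the arrays. With the deposited scaling the median difference was 0.046 for ribosomal protein genes, 0.043 for the large and 0.055 for the small subunit, -0.088 for other translation genes, -0.088 for mitochondrial ribosomal protein genes and 0.098 for ribosome biogenesis. The median of all genes tested was -0.12 under that scaling. With array median centring the median of all genes tested was -0.080, and the ribosomal protein genes had a median of 0.084 (large subunit 0.081, small 0.093). The medians of other translation genes and of mitochondrial ribosomal protein genes were both -0.050, above that of all genes. The large minus the small median was -0.036 with the mean of all probe sets of a gene, -0.027 with array weights and -0.034 within 4 arrays. Array weights called 5 ribosomal protein genes and 1169 genes in all, against 0 and 7 as reported; every other setting called 0 ribosomal protein genes, and 0 to 62 of all genes. The cause of these shifts was not tested. Leaving out 1 array gave medians from 0.12 to 0.26 for ribosomal protein genes, 0.11 to 0.27 for the large and 0.13 to 0.24 for the small subunit, 0.021 to 0.089 for other translation genes, 0.016 to 0.13 for mitochondrial and 0.21 to 0.29 for biogenesis genes, a large minus small median from -0.018 to 0.026, and 0 ribosomal protein genes called. Re-fed replicate 3 gave the lowest family median when left out. With the replicate block, the number of ribosomal protein genes called was 0 and the lowest limma adjusted p was 0.298 (Rps19). Same-numbered samples correlated at 0.021, -0.034 and -0.22 in their deviations from group means. With 3 arrays per group such values cannot decide whether the numbers pair the samples. Differences near 0 also moved when 1 array was left out: Rpl7l1 was -0.052 without re-fed replicate 3, Rpl7a 0.027 without the same array, Rplp2 0.016 without antibiotics replicate 1 and Rpl7 0.091 without re-fed replicate 1. The sign of 7 of the 25 named genes tested turned under at least 1 setting. Rpl12 lay closest to the limit for dim signal, with a mean of 5.81.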
